A study of Canis lupus familiaris with 37 samples.

Results

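ENSCAFG00000033802, ENSCAFG00000035265, ENSCAFG00000038320, ENSCAFG00000038492 and ENSCAFG00000040754 are 5 canine genes that the study lists as long non-coding RNAs (lncRNAs). They are 5 of the 32704 genes in the count data, and they were chosen because of their high read counts in OSW, a cell line derived from a canine T-cell lymphoma, against the other samples. Their excess in OSW is therefore described below and carries no test of its own. Poly-A RNA was sequenced from 37 samples to compare primary lymphomas and cultured lymphoid lines with lymph node. By their titles these comprised 4 controls (non-neoplastic lymph nodes), 12 B-cell lymphomas, 3 intestinal lymphomas, 1 T-cell lymphoma and 17 samples of 5 immortalized lines. The lines were OSW (4 samples) and CL-1 (2 samples), which derive from T-cells, and CLBL-1 (5 samples), CLBL-1M (5 samples, a line re-established from a CLBL-1 tumor grown in mouse) and GL-1 (1 sample), which derive from B-cells. No drug treatment or genetic change is given for any group, and nothing states that the samples of a line came from separate cultures, so the spread between them may be technical. All 4 OSW samples come from 1 line and thus from the cells of 1 animal.

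LncRNAs are transcripts that are longer than small regulatory RNAs and have no recognized protein product. Many are spliced and carry a poly-A tail like messenger RNA. As a class they tend to be made in fewer tissues and cell types than messenger RNAs, and individual lncRNAs are known to act on chromatin, on transcription of nearby genes or as scaffolds for proteins, while most have no assigned function. None of the 5 identifiers was paired with a symbol, a function, a chromosome position or a length in the sources used here, and the roles of these genes are not described for that reason. Likewise, none of 28 T-cell, B-cell and stromal marker symbols could be matched to an identifier, so the T-cell label of OSW was not checked against markers.

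The samples held from 1962722 to 4863730 gene reads, and the OSW samples from 2810510 to 3152847. In 1 sample, 3 reads of a gene correspond to 0.617 to 1.53 counts per 1000000 gene reads (CPM). The OSW samples differed from each other by more than counting error over all genes (chi-square per degree of freedom 3.34 to 9.76 over their 6 pairs), and no pair was 1 library deposited more than once. Control replicate 4 stood apart. Its source name in the labels is that of a T-cell lymphoma line, and reads that fell on more than 1 gene made up 0.476% of its reads, against 0.129 to 0.143% in control replicates 1 to 3 and 0.363 to 0.549% in the 17 cell line samples. Its share of reads outside genes was 82.9%, the highest of the 37 samples and outside the range of both sets. That share was 76.2 to 77.6% in control replicates 1 to 3 and 68.0 to 77.6% in the cell line samples. Ratios and fitted fold-changes of the 5 lncRNAs against the controls are therefore also given for control replicates 1 to 3 and for replicate 4 separately.

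The 5 lncRNAs had 1176 reads in all 37 samples, of which 1160 lay in the 4 OSW samples and 16 in the other 33 samples. Each of them was present in every OSW sample, with between 28 and 97 reads. ENSCAFG00000033802 had 50, 40, 70 and 64 reads in OSW replicates 1 to 4, or 15.9, 14.2, 23.7 and 20.3 CPM, with a mean of 18.5 ± 4.32 CPM (SD, n = 4). It was highest in replicate 3 and lowest in replicate 2, and all 4 samples lay far above its highest value elsewhere, which was 0.449 CPM.

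ENSCAFG00000035265 had 44, 66, 34 and 57 reads in the same order, or 14.0, 23.5, 11.5 and 18.1 CPM, with a mean of 16.8 ± 5.23 CPM (SD, n = 4). Here replicate 2 was highest and replicate 3 lowest, the reverse of ENSCAFG00000033802 at both ends. ENSCAFG00000038320 had 28, 40, 47 and 48 reads, or 8.89, 14.2, 15.9 and 15.2 CPM, with a mean of 13.6 ± 3.201 CPM (SD, n = 4). Its lowest value was that of replicate 1, and the other 3 samples lay close together.

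ENSCAFG00000038492 had 42, 55, 45 and 67 reads, or 13.3, 19.6, 15.3 and 21.3 CPM, with a mean of 17.4 ± 3.68 CPM (SD, n = 4). Replicates 2 and 4 were high and replicates 1 and 3 were low. ENSCAFG00000040754 had 95, 91, 80 and 97 reads, or 30.1, 32.4, 27.1 and 30.8 CPM, with a mean of 30.1 ± 2.19 CPM (SD, n = 4), and its 4 samples lay closest together. The counts are not divided by transcript length, so these values rank samples for 1 gene and do not rank the 5 genes among themselves.

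**Figure D1:**
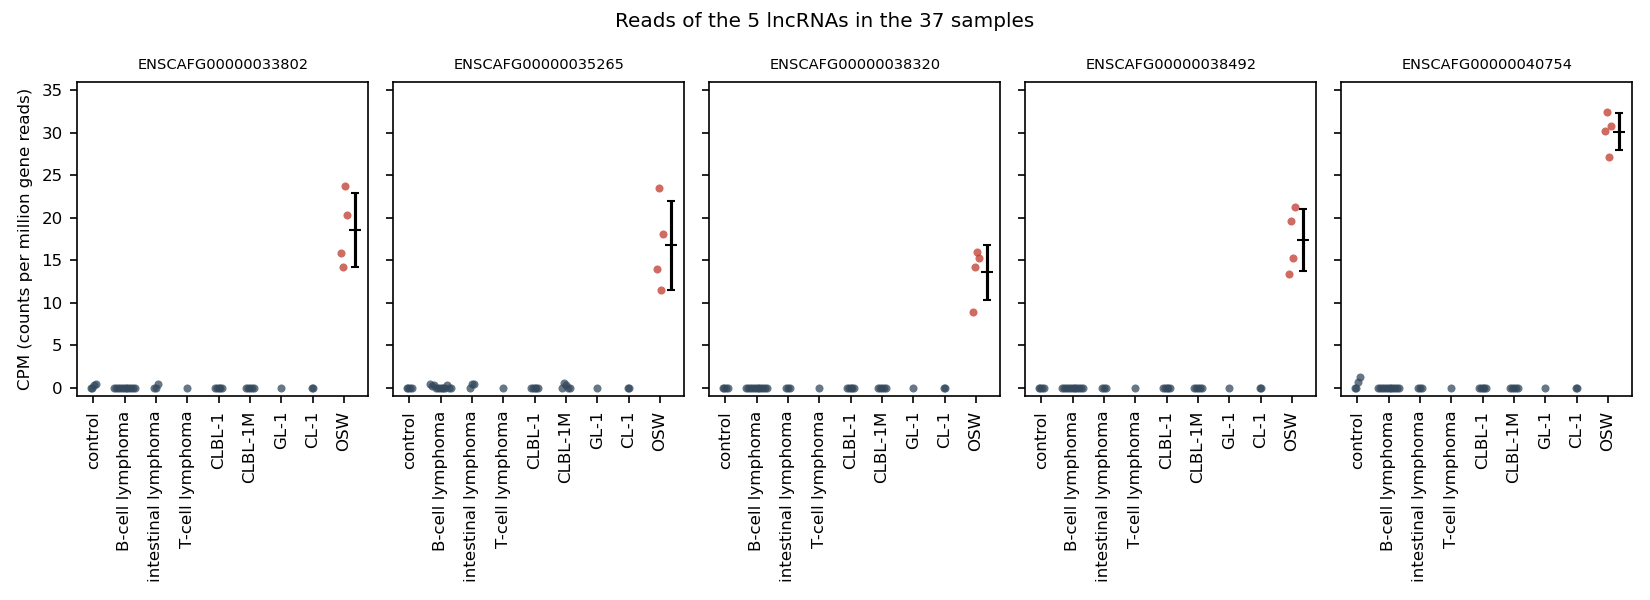
CPM (counts per 1000000 gene reads, linear axis) of the 5 lncRNAs in all 37 samples, 1 point a sample, by group, with mean and SD beside the 4 OSW samples. For each gene the OSW samples lie between 8.89 and 32.4 CPM and no other sample exceeds 1.30 CPM.

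The 5 lncRNAs did not follow a common order over the OSW samples. Their order from highest to lowest was replicate 3, 4, 1, 2 for ENSCAFG00000033802, replicate 2, 4, 1, 3 for ENSCAFG00000035265 and ENSCAFG00000040754, replicate 3, 4, 2, 1 for ENSCAFG00000038320 and replicate 4, 2, 3, 1 for ENSCAFG00000038492. Replicate 4 was the only OSW sample in which all 5 lay above their own OSW mean, at 1.02 to 1.23 times it. In replicate 1, ENSCAFG00000040754 lay at its mean (1.00 times) and the other 4 lay below it, at 0.655 to 0.856 times. Summed over the 5 genes, the OSW samples had 82.2, 103.9, 93.6 and 105.6 CPM in replicates 1 to 4. With 4 samples no correlation between the genes was computed.

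In all 5 lncRNAs the spread between OSW samples lay between the 5th and the 95th percentile of genes with a like number of OSW reads. As a measure, the chi-square statistic per degree of freedom of the 4 counts against equal CPM is near 1 where counting error alone acts. It was 2.95 for ENSCAFG00000033802, beside a median of 2.12 over 3855 genes whose summed OSW reads lay within a factor of 2. It was 4.75 for ENSCAFG00000035265, beside a median of 2.04, and 82.1% of 3669 like genes had a lower value. ENSCAFG00000038320 (2.36 beside 1.90) and ENSCAFG00000038492 (2.42 beside 2.08) lay near the middle of their like genes, with 58.4 and 56.0% below them.

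ENSCAFG00000040754 had the lowest value of the 5, 0.464 beside a median of 2.59, and 7.69% of 4514 like genes lay lower. Its highest OSW sample was 1.19 times its lowest, against 1.59 to 2.04 times for the other 4 genes. Among all pairs of OSW samples, exact 95% Poisson intervals were disjoint for 1 gene and 1 pair, ENSCAFG00000035265 in replicates 2 (18.2 to 29.9 CPM) and 3 (7.99 to 16.1 CPM). These intervals cover counting error only.

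**Figure D2:**
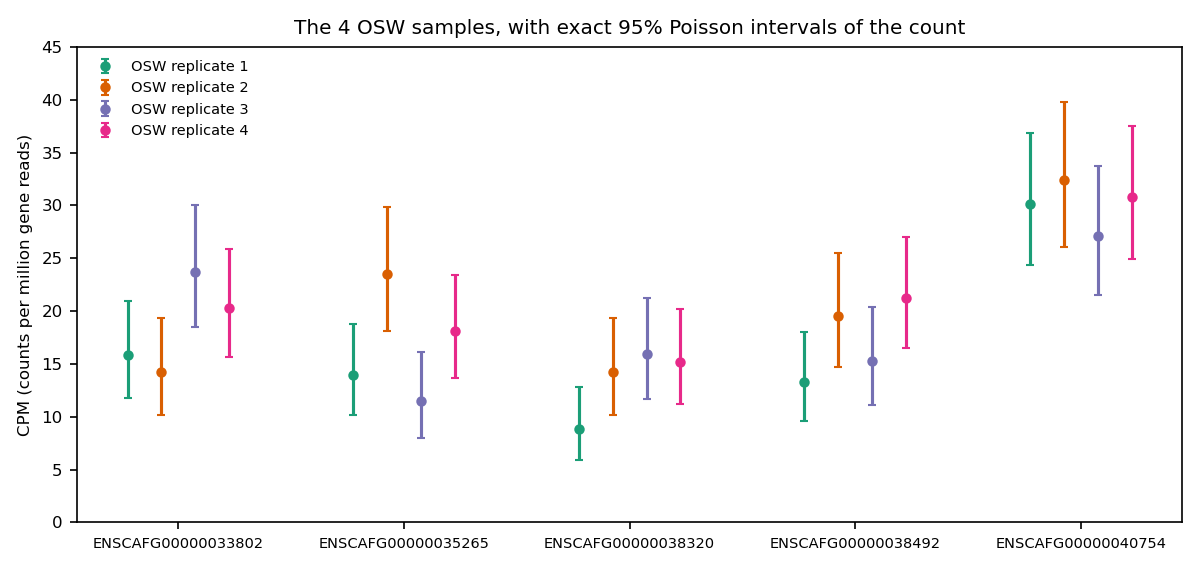
CPM (counts per 1000000 gene reads, linear axis) of the 5 lncRNAs in OSW replicates 1 to 4, with exact 95% Poisson intervals of each count. The 4 points of ENSCAFG00000040754 lie within 27.1 to 32.4 CPM, while ENSCAFG00000035265 ranges from 11.5 CPM in replicate 3 to 23.5 CPM in replicate 2.

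Outside OSW, 10 of 33 samples held any read of the 5 lncRNAs and 23 held none. No read of any of them was found in CL-1, the other T-cell derived line, and 0 reads in its 2 samples together allow a level of up to 0.489 CPM for each gene. The GL-1 sample had no read either (up to 1.05 CPM), nor did the T-cell lymphoma sample (up to 0.860 CPM). These limits stand for 3 counts over the gene reads of the group and cover counting error only. Lower levels of these genes would not have been detectable in CL-1, GL-1 or the T-cell lymphoma at this depth.

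ENSCAFG00000038320 and ENSCAFG00000038492 had 0 reads in all 33 samples, against 163 and 209 reads in OSW. Over the 96870298 gene reads of these samples, 0 reads allow a level of up to 0.0310 CPM. ENSCAFG00000033802 had 3 single reads outside OSW, in control replicate 3, control replicate 4 and intestinal lymphoma replicate 3. It had no read in the 12 B-cell lymphomas, the T-cell lymphoma or the 13 other cell line samples.

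ENSCAFG00000035265 was found in the most samples outside OSW, with 8 single reads in 8 samples. These were B-cell lymphoma replicates 1, 2, 3 and 10, intestinal lymphoma replicates 2 and 3, and CLBL-1M replicates 2 and 3, at 0.234 to 0.505 CPM, which is what 1 read is worth in each. It had none in the 4 controls, unlike ENSCAFG00000033802 and ENSCAFG00000040754, the other lncRNAs with reads outside OSW. The 8 reads made up a pooled level of 0.0826 CPM in the 33 samples, against 16.7 CPM in OSW.

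ENSCAFG00000040754 had 5 reads outside OSW, and all were in controls, 2 in replicate 3 (0.659 CPM) and 3 in replicate 4 (1.30 CPM). The 3 reads in control replicate 4 were the most of any of the 5 lncRNAs in any sample outside OSW. Pooled over the 4 controls its level was 0.527 CPM, and over control replicates 1 to 3 it was 0.278 CPM. In the 29 samples that were neither OSW nor control it had no read, which allows a level of up to 0.0343 CPM. ENSCAFG00000033802 had 2 reads in controls and 1 in these 29 samples.

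Control replicates 3 and 4 were thus the controls with reads of the 5 lncRNAs, 3 and 4 reads respectively, and replicates 1 and 2 had 0. Replicates 3 and 4 share a flow cytometry label for T-cell lymphoma derived material with all 4 OSW samples, although their titles name them controls. That field disagrees with the titles of many samples and was not used for grouping. Whether these reads stem from the labelled tissue, from a mixture of libraries or from a mislabelled sample was not tested. In bulk RNA, fewer cells that carry a transcript and less of the transcript per cell cannot be told apart.

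Ratios of summed reads, each divided by the gene reads of its group, were computed for OSW over each group, with the 3-count limit in place of 0. Their intervals cover counting error only. The bounds take the OSW count as exact, so they leave out its counting error and are not lower ends of such intervals. Both leave out the spread between samples. Against all 33 other samples, ENSCAFG00000033802 was 600-fold higher in OSW (exact 95% interval 203 to 2930), ENSCAFG00000035265 202-fold (100.5 to 474) and ENSCAFG00000040754 583-fold (248 to 1806). ENSCAFG00000038320 and ENSCAFG00000038492 were at least 436-fold and at least 560-fold higher. ENSCAFG00000035265 thus had the smallest ratio, and its interval overlapped those of the other 2 lncRNAs with reads on both sides.

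The values against the 4 controls were as follows. ENSCAFG00000033802 was 88.1-fold higher in OSW (24.1 to 732) and ENSCAFG00000040754 57.1-fold (24.3 to 177). For ENSCAFG00000035265, ENSCAFG00000038320 and ENSCAFG00000038492, which had no read in a control, OSW was at least 52.7-fold, 42.7-fold and 54.8-fold higher. Control replicate 4 lowered the ratio of ENSCAFG00000040754, which was 108 (29.7 to 896.5) against control replicates 1 to 3 and 23.1 (7.84 to 112) against replicate 4. For ENSCAFG00000033802 the corresponding ratios were 133.5 (23.7 to 5296) and 42.7 (7.59 to 1695), with overlapping intervals in both cases. For ENSCAFG00000035265, ENSCAFG00000038320 and ENSCAFG00000038492 the bounds were 39.9-fold, 32.4-fold and 41.5-fold against replicates 1 to 3, and 12.8-fold, 10.4-fold and 13.3-fold against replicate 4, where both sets had no read.

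Against CL-1 the 5 lncRNAs were higher in OSW by at least 38.0-fold, 34.1-fold, 27.6-fold, 35.4-fold and 61.6-fold, in the order of their identifiers. Against GL-1, with 1 sample, the bounds were 17.7-fold, 15.9-fold, 12.9-fold, 16.5-fold and 28.6-fold. Both lines had no read of any of the 5, so these bounds follow the depth of the lines and the OSW reads of each gene. Against the 16 primary lymphomas, ENSCAFG00000035265 was 138-fold higher (62.4 to 381) and ENSCAFG00000040754 at least 499-fold higher.

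**Figure D3:**
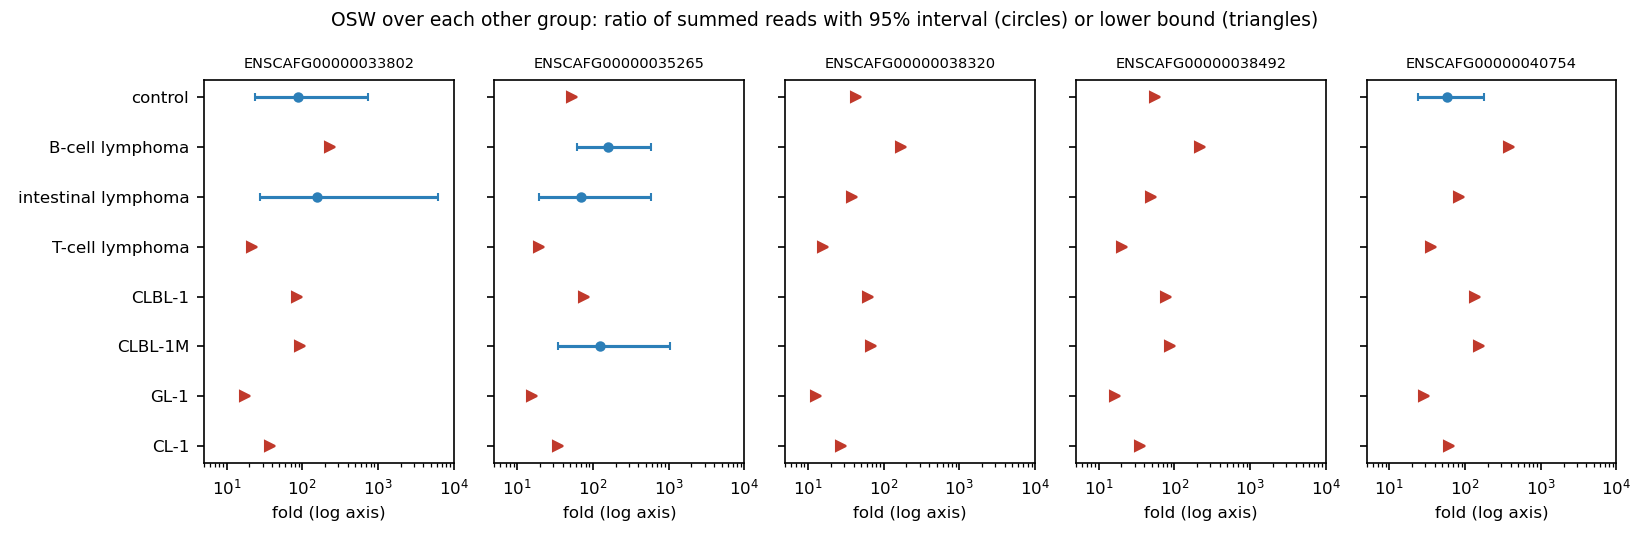
Ratio of pooled CPM in OSW over each other group (log axis) for the 5 lncRNAs, as circles with exact 95% intervals where the group had reads and as triangles at the lower bound where it had none. All points lie above 10, and the bounds are lowest for GL-1 and the T-cell lymphoma, which have 1 sample each.

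When all genes were fitted together by edgeR, all 5 lncRNAs passed the filter on low counts (a highest CPM above 6.69), and all 5 did so through the OSW samples alone. Their log2 fold-changes in OSW against the controls were 6.33 (SE 0.90) for ENSCAFG00000033802, 8.63 (SE 1.17) for ENSCAFG00000035265, 8.32 (SE 1.06) for ENSCAFG00000038320, 8.68 (SE 1.02) for ENSCAFG00000038492 and 5.89 (SE 0.83) for ENSCAFG00000040754. Without control replicate 4 they were 6.76, 8.67, 8.36, 8.72 and 6.67 in the same order, and with it as the only control 5.47, 8.63, 8.32, 8.68 and 4.69. Each SE is the size of the fold-change over the square root of the F statistic of its edgeR test, and is not estimated by the fit. For the 3 without a read in a control the fitted value and this SE depend on the prior count, and neither is a bound. The calls that follow are no test of the excess, since the 5 genes were chosen on this contrast and passed the filter through OSW alone. At the adjusted p-value of 1e-05 that the study used as threshold, 1 of the 5 was called, ENSCAFG00000035265. At that threshold 5.61% of the 15162 genes tested were called higher in OSW. The call of ENSCAFG00000035265 was lost without control replicate 3 (edgeR adjusted p = 1.26e-05) and with the replicate number as a block (0 of 5 called). In these 2 settings 550 of 15096 and 587 of 15162 genes tested were called higher, beside 851 of 15162 in the main fit. DESeq2 also called ENSCAFG00000035265, where 7.75% of 14993 genes were called higher, but the tools differed on the others. At an adjusted p of 0.05, 5 of 5 passed by edgeR, where 3981 of the 15162 genes tested were called higher in OSW. The DESeq2 adjusted p was 0.0448, 0.319, 0.199 and 0.428 for ENSCAFG00000033802, ENSCAFG00000038320, ENSCAFG00000038492 and ENSCAFG00000040754. Its share over all genes at 0.05 was not computed. Since the 5 genes were chosen on this contrast, these values only place them among all genes. The study lists all 5 among its 97 lncRNAs differentially expressed in at least 1 sample group. It filtered lncRNAs apart from protein-coding genes and tested moderated fold-changes with an earlier version of DESeq2. Its calls and those given here thus come from unlike tests.

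In all 5 lncRNAs every OSW sample lay above every other sample, which held for 3.26% of the genes tested and for 2.27% of the 25270 genes with a read in any sample. The choice of the 5 genes fixes this count.

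Genes with neighbouring identifiers were examined next, taking every gene in the data whose identifier number lay within 10 of that of a lncRNA. This gave 100 genes, of which 60 had a read in any sample and 28 a read in OSW. Only 6 passed the filter. Of these 6, edgeR called 0 in OSW against the controls (12.3% of all genes tested were called in either direction). By edgeR, 3 of 6 had an unadjusted p-value below 0.05, a level at which the share over all genes was not computed. At an adjusted p of 0.05, 3 of 6 passed, beside 8620 of the 15162 genes tested. The 3 of 6 were thus no excess over all genes, and 1 of the 3 had passed the filter through OSW alone. DESeq2 called 1 of the 6, ENSCAFG00000038323, which was lower in OSW (14.0% of 14993 genes were called lower). That gene lies 3 numbers from ENSCAFG00000038320 and had 0.669 ± 0.599 CPM in OSW against 17.7 ± 3.28 CPM in the controls (SD, n = 4 each), the opposite direction to its numbered neighbour (edgeR adjusted p = 1.74e-05). Its log2 fold-change was -4.53, -4.74 without control replicate 4 and -3.99 with that replicate as the only control. The median log2 fold-change of the 6 genes was -1.57, beside -0.08 over all genes tested, and 1 of the 6, ENSCAFG00000040762, had passed the filter through OSW alone.

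Every OSW sample lay above every other sample in 2 of the 60 neighbours with a read, beside the 2.27% of all genes with a read given above, and both are neighbours of ENSCAFG00000040754. The gene 8 numbers above it, ENSCAFG00000040762, had 97, 76, 72 and 97 reads in OSW replicates 1 to 4, or 30.8, 27.0, 24.4 and 30.8 CPM, with a mean of 28.3 ± 3.1 CPM (SD, n = 4). It had 3, 3, 7 and 12 reads in control replicates 1 to 4, or 1.37, 1.53, 2.31 and 5.22 CPM. Like ENSCAFG00000040754 it had no read in CL-1 and its highest control was replicate 4, but it had 79 reads in 24 of the 33 samples outside OSW, where ENSCAFG00000040754 had 5 reads in 2.

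ENSCAFG00000040762 was 34.8-fold higher in OSW than in the 33 other samples together (27.2 to 44.99), 10.8-fold higher than in the controls (7.17 to 16.9) and 5.44-fold higher than in control replicate 4 (3.07 to 10.6). It was singled out for the order of its samples and passed the filter through OSW alone, so no p-value of it is given.

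The gene directly below ENSCAFG00000040754 in number, ENSCAFG00000040753, had 3, 8, 4 and 5 reads in OSW and did not pass the filter. Elsewhere it had 3 reads in the T-cell lymphoma and 2 in GL-1, samples in which ENSCAFG00000040754 had none. Its ratio of OSW over the T-cell lymphoma was 1.93 (0.572 to 10.1), so that a difference between these was not detectable at this depth. The neighbours of the other 4 lncRNAs held no gene with every OSW sample above all others. The nearest to it was ENSCAFG00000033809, 7 numbers above ENSCAFG00000033802, which had 2, 11, 0 and 3 reads in OSW replicates 1 to 4 and none in the 33 other samples. It was highest in replicate 2 and absent from replicate 3, where ENSCAFG00000033802 was lowest and highest, respectively.

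**Figure D4:**
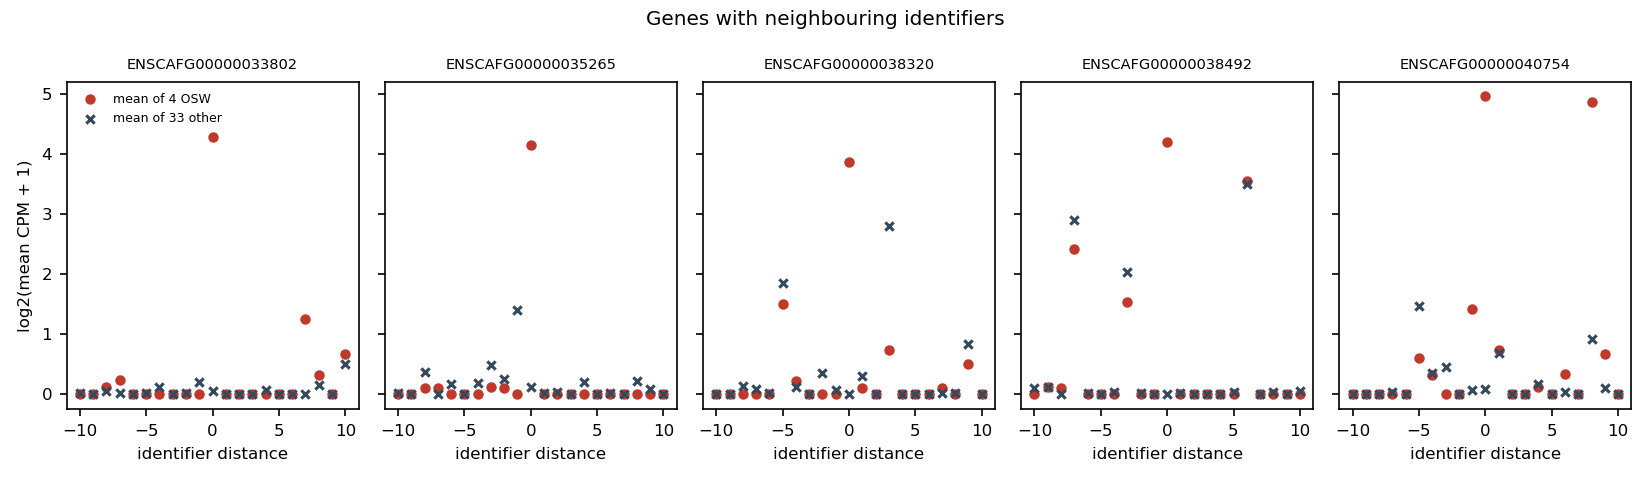
Level of the genes within 10 identifier numbers of each lncRNA, as log2(mean CPM + 1) over the 4 OSW samples (circles) and the 33 other samples (crosses), against the difference in identifier number, with the lncRNA at 0. At a distance of 8 from ENSCAFG00000040754 lies a gene with 28.3 CPM in OSW, and no neighbour of the other 4 lncRNAs has as large an excess in OSW.

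A neighbouring identifier is not taken here as a measure of distance in the genome, since no chromosome positions were at hand. In the identifier range of the 5 lncRNAs (numbers from 33000 up), each gene tested was paired with the next gene tested in order of number. The median correlation across samples was -0.00948 over the 399 such pairs that lay at most 10 numbers apart. It was 0.00937 over 186 pairs of genes that lay 500 places apart in this order. Neither differs by much from 0. Below 33000 the corresponding medians were 0.0243 and 0.0154, also near 0, so these values cannot show whether near numbers mean near positions. Genes next to the 5 lncRNAs on their chromosomes were not examined here.

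For each lncRNA the genes with the most similar pattern were taken by Pearson's correlation of log2(CPM + 1) over the 37 samples. All such values are set mainly by the gap between the 4 OSW samples and the rest, are a description, and say nothing of shared function or control. The closest gene was ENSCAFG00000015412 for ENSCAFG00000033802 (r = 0.994), ENSCAFG00000013603 for both ENSCAFG00000035265 (r = 0.988) and ENSCAFG00000038492 (r = 0.9996), ENSCAFG00000015167 for ENSCAFG00000038320 (r = 0.999) and ENSCAFG00000001571 for ENSCAFG00000040754 (r = 0.995). ENSCAFG00000013603 had 33.1 ± 10.01 CPM in OSW (SD, n = 4) and, like ENSCAFG00000038492, no read elsewhere.

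ENSCAFG00000038320 and ENSCAFG00000038492 were each among the 3 closest genes of the other (r = 0.998), and ENSCAFG00000038492 was also the third closest of ENSCAFG00000035265 (r = 0.987). The 10 pairs of the 5 lncRNAs ranged from 0.973, between ENSCAFG00000035265 and ENSCAFG00000040754, to 0.998. Correlations above 0.99 were found with 10, 0, 15, 22 and 5 genes for the 5 lncRNAs in the order of their identifiers, and above 0.95 with 78, 66, 79, 88 and 78. ENSCAFG00000035265, whose reads outside OSW were spread over the most samples, was the lncRNA without a gene above 0.99.

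The same pattern was also counted by a rule on reads, namely at least 3 in each OSW sample and at most 3 in each other sample. It was met by 88 genes, the 5 lncRNAs and 83 others. Of the 88, 23 had no read at all outside OSW, ENSCAFG00000038320 and ENSCAFG00000038492 among them. Identifier numbers from 33000 up, the range of the 5 lncRNAs, were held by 26 of the 88 genes. They were held by 4599 of the 25270 genes with a read in any sample and by 686 of the 15162 genes tested. The 26 include the 5 lncRNAs, whose own numbers set this range.

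Ordered by CPM in OSW, which is not corrected for length, ENSCAFG00000040754 stood 6th of the 88 and ENSCAFG00000033802 13th. The 2 genes with the highest CPM were ENSCAFG00000010351 with 195 ± 54.6 CPM and ENSCAFG00000019623 with 159 ± 28.1 CPM (SD, n = 4 each), with 11 reads each outside OSW. The 83 other genes summed to 985.1, 965.3, 996.5 and 1142 CPM in OSW replicates 1 to 4, so that replicate 4 was highest for these as for the sum of the 5 lncRNAs. The rest of the order differed. Replicate 2 was lowest for the 83 genes, while for the 5 lncRNAs it had 103.9 CPM, close to the 105.6 CPM of replicate 4.

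In the 33 samples outside OSW, the reads of these 83 genes were compared with those of the 5 lncRNAs. Control replicate 4 had the most, 47 reads on 30 of the 83 genes (20.4 CPM), and it also had the most reads of the 5 lncRNAs. Intestinal lymphoma replicate 3 followed with 41 reads on 27 genes (18.4 CPM) and 2 reads of the lncRNAs, and control replicate 3 had 31 reads on 17 genes (10.2 CPM) and 3 reads of the lncRNAs. These 3 samples hold 9 of the 16 reads of the lncRNAs outside OSW and all those of ENSCAFG00000033802 and ENSCAFG00000040754.

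The relation was not general. Control replicate 2 had 21 reads of the 83 genes (10.7 CPM), GL-1 had 21 and the 2 CL-1 samples had 21 and 25, all without a read of the 5 lncRNAs. The 10 samples with a read of the lncRNAs had 4 to 47 reads of the 83 genes (median 8.5), and the 23 samples without had 4 to 25 (median 8). The 7 samples whose only read was a single one of ENSCAFG00000035265 had 1.40 to 4.54 CPM of the 83 genes. Both counts come from rules on the same samples, and a transfer of reads between libraries was not tested.

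**Figure D5:**
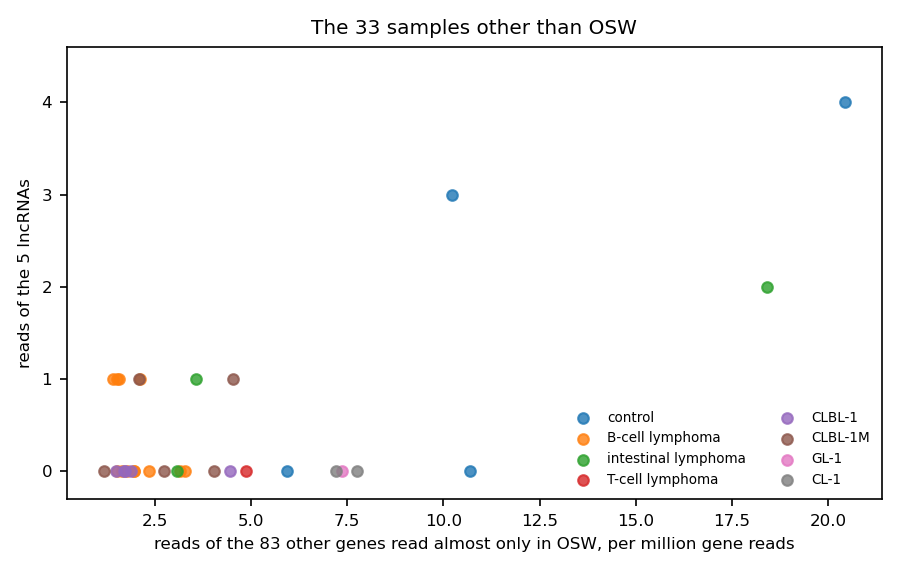
Reads of the 5 lncRNAs (y axis, summed reads) against the summed CPM of the 83 other genes read almost only in OSW (at most 3 reads in any other sample, x axis), 1 point for each of the 33 samples other than OSW, by group. Control replicate 4, at 20.4 CPM and 4 reads, and intestinal lymphoma replicate 3, at 18.4 CPM and 2 reads, lie to the right, while 23 samples lie at 0 reads.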

How the data were processed

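The authors sequenced poly-A RNA from both fragment ends (100 bp each), used BWA to map the reads to CanFam3.1, cleaned the mappings with Picard and SAMtools, and counted them on genes of Ensembl release 85 with HTSeq 0.6.1. The data deposited are these raw counts for each gene, not normalized. Whether the authors counted by strand is not stated, so a lncRNA and a gene on the opposite strand may share reads. Reads outside genes (68.0 to 82.9%) and reads on more than 1 gene were left out of the totals.

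Samples were grouped by their titles, since other label fields and the names of the CLBL-1 and CLBL-1M data disagree with them. The 5 lncRNAs, all lists and all rules were chosen with earlier results of these data known. CPM is a count per 1000000 of the summed gene counts. Ratios carry exact conditional binomial 95% intervals (Clopper-Pearson). For a group with 0 reads they are bounds without an interval, with 3 counts over the group in place of 0 and the OSW count taken as exact. Intervals and bounds treat the summed reads of a group as 1 count and leave out the spread between samples. In R 4.3.3, edgeR 4.0.16 (TMM, quasi-likelihood F test, Benjamini-Hochberg adjustment) fitted all 37 samples in 8 groups (intestinal and T-cell lymphomas as 1 group) to the 15162 genes whose highest CPM exceeded the 40th percentile. DESeq2 1.42.0 (Wald test) was an alternative. The rule for named genes took the 5 lncRNAs, neighbours within 10 identifier numbers past the threshold, the 3 genes most like each lncRNA and the 10 genes with the highest OSW CPM among those with at least 3 reads in each OSW sample and at most 3 in each other sample. The text prints a few of these, since identifiers were not paired with names here. ENSCAFG00000038323, ENSCAFG00000040753, ENSCAFG00000040762 and ENSCAFG00000033809 fell outside the rule and were named after their values were seen.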

Additional observations from a re-analysis of the deposited data

How the results depend on the processing

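The presence of the 5 lncRNAs in all OSW samples needs no model, but 0 to 8 reads of each outside OSW are too few to rank samples. With at least 3 reads required, ENSCAFG00000033802 and ENSCAFG00000035265 were found in 0 samples outside OSW (from 3 and 8) and ENSCAFG00000040754 in 1 (from 2). With all reads in the data as denominator, mean OSW CPM was 5.49, 4.95, 3.995, 5.13 and 8.93 in the order of the identifiers, and leaving out 1 OSW sample moved it within 16.8 to 19.97, 14.5 to 18.5, 12.8 to 15.1, 16.1 to 18.7 and 29.4 to 31.1. Genes called in OSW against controls numbered 1870, and 1189 to 1571 without 1 sample, 3261 by DESeq2, 8620 at an adjusted p of 0.05 and 415 with control replicate 4 as the only control, a setting chosen after seeing the data. RLE size factors shifted the median log2 fold-change of all genes by -0.16 and the share of higher calls from 45.5 to 35.1%, filterByExpr moved that share to 37.8%, DESeq2 to 35.6%, the fit of OSW and controls only to 36.2%, and control replicate 4 alone to 9.40%. The number of lncRNAs called was 2 in the fit of OSW and controls only, where 517 of 13728 genes tested were called higher in OSW. It was 0 without control replicate 3 (550 of 15096 higher) and 0 with the replicate number as a block (587 of 15162). It was 5 at an adjusted p of 0.05 (3981 of 15162) and 1 otherwise, as in the main fit (851 of 15162). Control replicate 4 alone is left out of these counts, since that setting leaves 1 control. The number of all genes called higher thus changed with the setting as well. The replicate block gave 1303 called genes and 0 called neighbours, but the numbers of OSW and controls did not pair the samples (correlations of same-numbered samples' deviations -0.06 to 0.07), and 0 of 4 OSW samples were most like the control of their own number. Called neighbours numbered 1 by DESeq2 and 3 at 0.05, and 0 in the remaining settings, also when 1 sample was left out (0 to 0). Genes with at least 3 reads in each OSW sample and at most 3 in each other sample numbered 88. They numbered 9 with at least 10 reads in each OSW sample and 0 elsewhere, 306 with at most 1% of summed CPM elsewhere, 91 to 99 without 1 OSW sample and 102 without control replicates 3 and 4, which was chosen after seeing the data. The cause of these differences was not tested. Of the 3 genes most like a lncRNA, the set moved in 8 of 10 comparisons with another pseudocount or a rank correlation.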
